A study of Homo sapiens with 6 samples.

Results

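A set of 9 transcription factors, 8 with known roles in the gut epithelium and the T-box factor TBX3, was followed in HCT116, a long-established line of human colorectal cancer cells: TBX3, CDX1, CDX2, HNF4A, HNF4G, GATA6, KLF4, KLF5 and SOX9. They are 9 of the 56638 gene symbols counted by RNA sequencing, taken by symbol, and all 9 symbols were present. The 9 were chosen with their values in these same libraries known, so their differences between the groups are given as a description, with no test. The groups were 3 libraries labelled ZFP90 knockout and 3 control libraries, all of HCT116 cells at passage 16 to 19. Guide RNAs were aimed at exon 3 of ZFP90, a zinc-finger gene of the KRAB family, and the labels say of the other cells only that they were controls. Whether the 3 libraries of a group stem from cultures or clones of their own is not in the labels. Tests between the groups therefore rest on the spread among these 6 libraries alone, and that spread could be technical. The stated setting of the study is the growth and stemness of colorectal tumours.

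In the gut, CDX1 and CDX2 are homeobox proteins that give the epithelium its intestinal identity, and HNF4A and HNF4G are related nuclear receptors that drive absorptive genes. GATA6 acts from the early endoderm onward, SOX9 marks the stem and progenitor cells of the crypt base, and TBX3 is a T-box repressor that serves Wnt and BMP signalling in several organs. KLF5 is a zinc-finger factor of dividing crypt cells, whereas its relative KLF4 is highest in differentiated cells at the surface.

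Promoter sequence was searched for 5 of the 9 genes (CDX2, HNF4A, GATA6, KLF4 and KLF5). It lay in 7 windows from 250 bases before to 50 after an annotated start, from RefSeq on GRCh38.p14. No sequence was at hand for TBX3, CDX1 and SOX9, and the promoter of HNF4G was left out of the search. HNF4A and KLF5 each have a pair of starts, 45540 and 4029 bases apart, and a count per gene does not say which was used. Those 4 windows are shown together with CDX2 and GATA6, which stand for a gene with like levels in both groups and one with lower levels in the libraries labelled knockout. All are written 5′ to 3′ on the strand of the gene, and capitals mark every match to a searched motif.
CDX2, chr13:27969266-27969565, minus strand: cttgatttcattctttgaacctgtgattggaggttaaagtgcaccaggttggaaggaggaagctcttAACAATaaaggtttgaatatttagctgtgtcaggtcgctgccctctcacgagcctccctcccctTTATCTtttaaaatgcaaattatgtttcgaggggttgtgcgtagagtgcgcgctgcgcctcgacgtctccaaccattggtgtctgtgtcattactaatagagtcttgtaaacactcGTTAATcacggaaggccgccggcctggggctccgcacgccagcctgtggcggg
HNF4A upstream start, chr20:44355449-44355748, plus strand: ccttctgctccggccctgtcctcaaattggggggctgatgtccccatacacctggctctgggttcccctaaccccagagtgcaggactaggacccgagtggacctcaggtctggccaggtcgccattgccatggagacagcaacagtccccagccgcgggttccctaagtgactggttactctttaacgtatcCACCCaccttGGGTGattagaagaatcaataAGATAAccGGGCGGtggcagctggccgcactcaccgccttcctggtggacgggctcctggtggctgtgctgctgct
HNF4A downstream start, chr20:44400989-44401288, plus strand: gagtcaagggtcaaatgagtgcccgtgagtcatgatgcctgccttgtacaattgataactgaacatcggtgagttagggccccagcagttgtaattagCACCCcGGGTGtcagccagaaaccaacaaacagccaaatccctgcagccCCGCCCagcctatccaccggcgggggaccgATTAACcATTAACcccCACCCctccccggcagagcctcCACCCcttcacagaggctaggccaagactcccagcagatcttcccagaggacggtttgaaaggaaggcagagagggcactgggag
GATA6, chr18:22169339-22169638, plus strand: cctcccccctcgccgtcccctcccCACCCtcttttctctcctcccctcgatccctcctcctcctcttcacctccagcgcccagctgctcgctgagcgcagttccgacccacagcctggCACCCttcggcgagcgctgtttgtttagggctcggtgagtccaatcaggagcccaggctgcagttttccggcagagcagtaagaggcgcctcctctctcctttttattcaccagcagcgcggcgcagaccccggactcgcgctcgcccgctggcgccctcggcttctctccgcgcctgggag
KLF5 upstream start, chr13:73054726-73055025, plus strand: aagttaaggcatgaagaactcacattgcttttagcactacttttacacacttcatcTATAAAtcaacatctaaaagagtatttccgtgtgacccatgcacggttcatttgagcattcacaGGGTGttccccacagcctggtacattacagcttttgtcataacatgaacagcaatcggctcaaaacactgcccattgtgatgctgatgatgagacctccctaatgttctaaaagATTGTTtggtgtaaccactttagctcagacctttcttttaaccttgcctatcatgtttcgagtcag
KLF5 downstream start, chr13:73058755-73059054, plus strand: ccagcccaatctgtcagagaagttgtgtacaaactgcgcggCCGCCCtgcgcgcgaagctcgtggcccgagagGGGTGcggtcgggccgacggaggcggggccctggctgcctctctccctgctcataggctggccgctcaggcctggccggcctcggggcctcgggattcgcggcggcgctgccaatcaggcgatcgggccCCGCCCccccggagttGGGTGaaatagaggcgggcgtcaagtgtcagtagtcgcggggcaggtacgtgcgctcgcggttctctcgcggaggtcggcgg

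A set of 9 motifs was searched by their letters on both strands of 35116 RefSeq promoter windows. The KLF box CACCC stood in 59.9% of all windows, the GC box GGGCGG in 44.95%, the GATA site AGATAA in 10.3% and the SOX site AACAAT in 10.1%. The CDX site TTTATG stood in 10.6%, the TATA box TATAAA in 11.5%, the HNF1 half-site GTTAAT in 6.88%, the T-box half-site GGTGTGA in 3.45% and the HNF4 core CAAAGTCCA in 0.384%. No motif of these lies wholly inside another, but neighbouring matches can share bases. The downstream HNF4A window held 4 KLF boxes, 1 GC box and 2 HNF1 half-sites, the first bases of the last at positions −73 and −66 from the start. The upstream HNF4A window held 2 KLF boxes, 1 GC box and 1 GATA site at −26. CDX2 held 1 GATA site at −119, 1 SOX site at −183 and 1 HNF1 half-site at −3, and GATA6 held 2 KLF boxes. The KLF5 windows differed in base composition: the downstream one had 71.3% G and C, 2 KLF boxes and 2 GC boxes, and the upstream one had 40.7% G and C, 1 KLF box, 1 SOX site, 1 TATA box and no GC box, against a median of 58.7% over all windows. KLF4 held 4 GC boxes in a window of 69% G and C. None of the 7 windows held the letters of the T-box half-site, the CDX site or the HNF4 core. A match is a description of these letters and not a bound site, and a missing match says nothing about the factor.

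Each library held 13424356 to 17012910 reads in genes. Levels are given as CPM, the reads of a gene scaled to library size, on which 3 reads equal 0.181 to 0.224. ZFP90 itself averaged 85.6 ± 4.74 CPM in the libraries labelled knockout and 45.9 ± 2.52 CPM in the controls (SD, n = 3 each; log2 fold change 0.90, SE 0.066; edgeR quasi-likelihood test, adjusted p = 5.1e-05). Its RNA was therefore higher where the label says knockout, a gene count does not show the reading frame, and directions here are those of the libraries as labelled. Control replicate 2 stood apart from the other controls: the median gene on chromosomes 6, 7, 8, 9, X and M had 87.6%, 80.4%, 75.1%, 70.1%, 53.0% and 53.3% of their level, and on the other chromosomes between 101.9% and 104.3%. HNF4G on chromosome 8 and KLF4 on chromosome 9 are the 2 of the 9 genes that this touches. The cells carried epithelial markers in both groups: EPCAM averaged 347 ± 4.64 CPM in the libraries labelled knockout and 349 ± 11.8 CPM in the controls, and KRT8 averaged 1391 ± 48.2 CPM in the libraries labelled knockout and 1316 ± 24.1 CPM in the controls (SD, n = 3 each). KRT18 was called lower, at 178 CPM in the libraries labelled knockout and 209 CPM in the controls (log2 fold change −0.23; edgeR adjusted p = 0.0394). That call was lost with DESeq2, with the replicate block, and without replicate 2 or 3 labelled knockout or control replicate 3. KRT19 and CDH1 were not called (edgeR adjusted p = 0.223 and 0.755). Markers of mature gut epithelium ranged widely: VIL1 averaged 0.0838 CPM in the libraries labelled knockout and 0.0878 CPM in the controls, and LGALS4 averaged 0.0874 CPM in the libraries labelled knockout and 0.174 CPM in the controls, means below the level of 3 reads, whereas CDHR5 averaged 6.24 CPM in the libraries labelled knockout and 7.24 CPM in the controls. CDH17 averaged 1.03 CPM in the libraries labelled knockout and 0.756 CPM in the controls, and was not called (edgeR adjusted p = 0.328). KRT20 was called higher, at 7.33 CPM in the libraries labelled knockout and 1.33 CPM in the controls, as given below.

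Of the 9 genes, 8 had enough reads to pass the filter on low counts. By the fit over all genes, 4 passed the threshold of an adjusted p of 0.05 as higher in the libraries labelled knockout (TBX3, HNF4A, KLF4 and KLF5), and 2 were lower (SOX9 and GATA6). Over all 16369 genes tested, 21.1% passed that threshold, 9.73% as higher and 11.4% as lower. Left out one at a time, replicates 1 and 3 labelled knockout and control replicate 1 lowered the counts over all genes to 752, 803 and 930 higher and to 998, 1132 and 1227 lower. Without replicate 2 labelled knockout or control replicate 3 they were 1089 and 1176 higher and 1396 and 1393 lower. Without control replicate 2 they rose to 2248 higher and 2340 lower, from 1593 and 1861 in the main fit. The groups did not overlap for 7 of the 8 genes, against 41.2% of all genes tested. Since the 9 were chosen by this very contrast, nothing is read from their counts. These are bulk RNA counts, in which fewer cells with a transcript and less of it in each cell cannot be told apart.

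**Figure D1:**
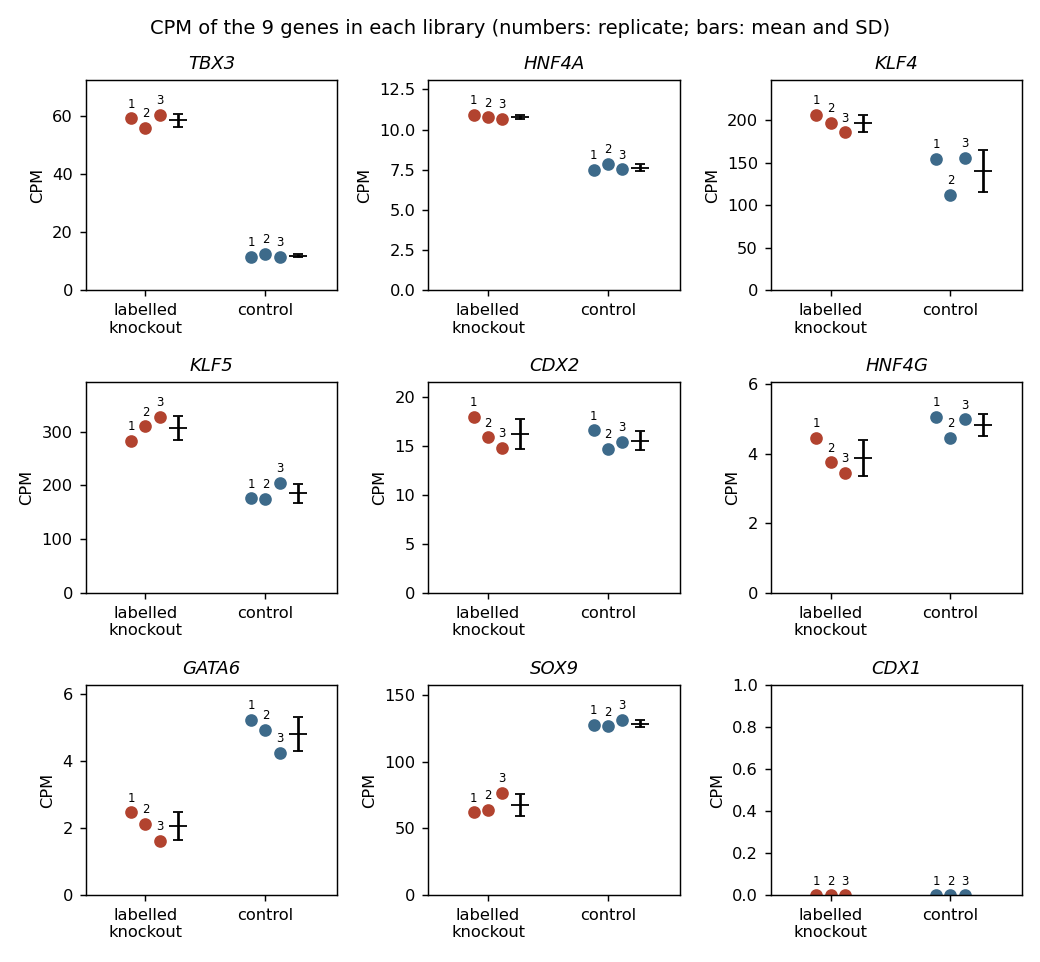
Scaled read counts (CPM) of each of the 9 genes in the 3 libraries labelled knockout (left) and the 3 controls (right), 1 panel a gene, with points numbered by replicate and a bar for mean and SD. TBX3 lies between 55.9 and 60.6 CPM in the libraries labelled knockout and between 11.6 and 12.5 CPM in the controls, CDX2 is the tested gene whose groups overlap, and CDX1 has no reads.

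TBX3, the T-box repressor, had the largest difference of the 8 genes. It lies on chromosome 12 from 114670254 to 114684164 on the minus strand (GRCh38, GENCODE release 29, as are all gene positions here). It had 984, 790 and 927 reads in the libraries labelled knockout, or 59.3, 55.9 and 60.6 CPM, and 188, 191 and 157 reads in the controls, or 11.6, 12.5 and 11.7 CPM. Every library labelled knockout was above every control by a wide margin, and within each group the values were close. The means were 58.6 ± 2.40 CPM in the libraries labelled knockout and 11.9 ± 0.526 CPM in the controls (SD, n = 3 each), a 4.91-fold difference with a log2 fold change of 2.29 (SE 0.071). With each library left out in turn, the log2 fold change ran between 2.27 and 2.33.

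SOX9, the crypt base factor, differed the other way. Its place is chromosome 17, plus strand, 72121020 to 72126420. It had 1028, 899 and 1176 reads in the libraries labelled knockout, or 62.0, 63.6 and 76.8 CPM, and 2064, 1923 and 1761 reads in the controls, or 127, 126 and 131 CPM. The 3 controls were nearly equal, and replicate 3 was the highest of the libraries labelled knockout without reaching them. The means were 67.5 ± 8.12 CPM in the libraries labelled knockout and 128 ± 2.63 CPM in the controls (SD, n = 3 each), a log2 fold change of −0.93 (SE 0.080). GENCODE places SOX9 inside the span of the antisense gene SOX9-AS1. The strand setting of the counting is not given in the sources used here, so reads of this pair cannot be told apart where their exons overlap.

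GATA6, the endoderm factor, was also lower in the libraries labelled knockout, at low counts. Its place is chromosome 18, plus strand, 22169443 to 22202528. It had 41, 30 and 25 reads in the libraries labelled knockout, or 2.47, 2.12 and 1.63 CPM, and 85, 75 and 57 reads in the controls, or 5.24, 4.93 and 4.25 CPM. The highest library labelled knockout stayed below the lowest control. The means were 2.08 ± 0.422 CPM in the libraries labelled knockout and 4.80 ± 0.506 CPM in the controls (SD, n = 3 each), with a log2 fold change of −1.21 (SE 0.19) that ran between −1.36 and −1.06 with each library left out.

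The 2 HNF4 receptors pointed in opposite directions, and the difference between their responses was not tested. HNF4A, on the plus strand of chromosome 20 (44355700 to 44434596), had 181, 152 and 163 reads in the libraries labelled knockout and 122, 120 and 101 reads in the controls. In CPM it had 10.9, 10.8 and 10.6 in the libraries labelled knockout, against 7.52, 7.88 and 7.53 in the controls. Both groups were tight and clear of each other, at 10.8 ± 0.135 CPM in the libraries labelled knockout and 7.64 ± 0.209 CPM in the controls (SD, n = 3 each), a 1.41-fold difference (log2 fold change 0.50, SE 0.097). HNF4G, on the plus strand of chromosome 8 (75407914 to 75566843), had 74, 53 and 53 reads in the libraries labelled knockout and 82, 68 and 67 reads in the controls. It had 4.46, 3.75 and 3.46 CPM in the libraries labelled knockout, against 5.05, 4.47 and 4.99 CPM in the controls. The highest library labelled knockout all but met the lowest control, which was replicate 2. The log2 fold change was −0.31 (SE 0.15), short of the threshold, and −0.36 without control replicate 2.

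The caudal factors CDX1 and CDX2 gave no difference. CDX1, on the plus strand of chromosome 5 (150166795 to 150184558), had 0 reads in all 6 libraries, which allows a level of up to 0.224 CPM in the shallowest of them. CDX2, on chromosome 13 from 27962137 to 27971139 on the minus strand, had 297, 224 and 227 reads in the libraries labelled knockout and 269, 223 and 207 reads in the controls. In CPM it had 17.9, 15.9 and 14.8 in the libraries labelled knockout, against 16.6, 14.6 and 15.4 in the controls. The groups interleaved, at 16.2 ± 1.57 CPM in the libraries labelled knockout and 15.5 ± 0.968 CPM in the controls (SD, n = 3 each; log2 fold change 0.06, SE 0.10). The sign of this small value turned without replicate 1 labelled knockout, where it was −0.02.

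Both Krüppel-like factors were higher in the libraries labelled knockout, KLF5 by more than KLF4. KLF5, on the plus strand of chromosome 13 (73054976 to 73077542), had 4678, 4371 and 4997 reads in the libraries labelled knockout and 2853, 2651 and 2753 reads in the controls. It had 282, 309 and 326 CPM in the libraries labelled knockout, against 176, 174 and 205 CPM in the controls. The groups were well apart, at 306 ± 22.4 CPM in the libraries labelled knockout and 185 ± 17.5 CPM in the controls (SD, n = 3 each), a 1.65-fold difference (log2 fold change 0.73, SE 0.078). KLF4, on chromosome 9 from 107484852 to 107490482 on the minus strand, had 3417, 2782 and 2840 reads in the libraries labelled knockout and 2498, 1707 and 2084 reads in the controls. It had 206, 197 and 186 CPM in the libraries labelled knockout, against 154, 112 and 155 CPM in the controls. Control replicate 2 was far below the other controls for KLF4, yet those too stayed below every library labelled knockout. The means were 196 ± 10.3 CPM in the libraries labelled knockout and 140 ± 24.5 CPM in the controls (SD, n = 3 each). The log2 fold change of KLF4 was 0.48 (SE 0.11), and 0.35 without control replicate 2. KLF4 no longer passed the threshold without replicate 1 or without replicate 2 labelled knockout.

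**Figure D2:**
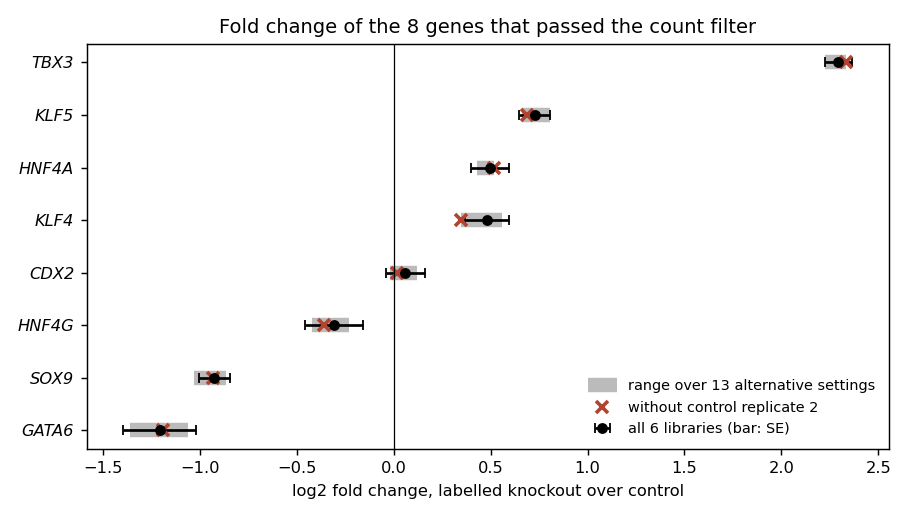
Log2 fold change of the 8 genes with enough reads, libraries labelled knockout over controls, each as a point with its SE, a cross for the value with control replicate 2 left out and a grey band for the range over 13 alternative settings. TBX3 stands at 2.29 and GATA6 at −1.21, CDX2 and HNF4G lie nearest 0, and KLF4 lies at 0.48, and at 0.35 without that library.

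Per length, 3 of the genes dominated in both groups. On the scale of CPM per kilobase of exon, KLF5 stood at 78.6 ± 5.74 in the libraries labelled knockout and 47.5 ± 4.48 in the controls, and KLF4 at 53.6 ± 2.81 in the libraries labelled knockout and 38.4 ± 6.70 in the controls (SD, n = 3 each). SOX9 stood at 17.2 ± 2.06 in the libraries labelled knockout and 32.6 ± 0.667 in the controls. TBX3 stood at 9.85 ± 0.403 in the libraries labelled knockout and 2.01 ± 0.0884 in the controls, and CDX2 at 3.93 ± 0.381 in the libraries labelled knockout and 3.77 ± 0.235 in the controls. HNF4A, HNF4G and GATA6 were at the bottom. In the libraries labelled knockout they stood at 1.47, 0.810 and 0.526 CPM per kilobase, and in the controls at 1.05, 1.01 and 1.22.

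The order of these levels was not the same in the groups. In the libraries labelled knockout it ran KLF5, KLF4, SOX9, TBX3, CDX2, HNF4A, HNF4G and GATA6, and no neighbouring ranges overlapped. In the controls CDX2 stood above TBX3, and GATA6 above HNF4A and HNF4G. There the 3 values of SOX9, between 32.1 and 33.3 CPM per kilobase, lay inside those of KLF4, between 30.6 and 42.4. That overlap rests on control replicate 2, which was low on chromosome 9, where KLF4 lies. In control replicates 1 and 3 KLF4 had 42.1 and 42.4, above every value of SOX9. The ranges of GATA6 and HNF4A overlapped in the controls, as did those of HNF4A and HNF4G, so over all 3 controls these neighbours were not separated. For HNF4A and HNF4G the overlap rests on control replicate 2, which was low on chromosome 8, where HNF4G lies. In control replicates 1 and 3 HNF4G had 1.051 and 1.039 CPM per kilobase, above HNF4A at 1.028 and 1.029. In control replicate 2 HNF4G had 0.929 and HNF4A 1.078. Among all genes tested, the level of TBX3 per kilobase was at percentile 67.1 in the libraries labelled knockout and at percentile 26.8 in the controls. SOX9 was at percentile 81.7 in the libraries labelled knockout and 91.8 in the controls, and GATA6 at percentile 10.1 in the libraries labelled knockout and 19.4 in the controls. With the longest transcript in place of all exons as the length, the ranks were the same.

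**Figure D3:**
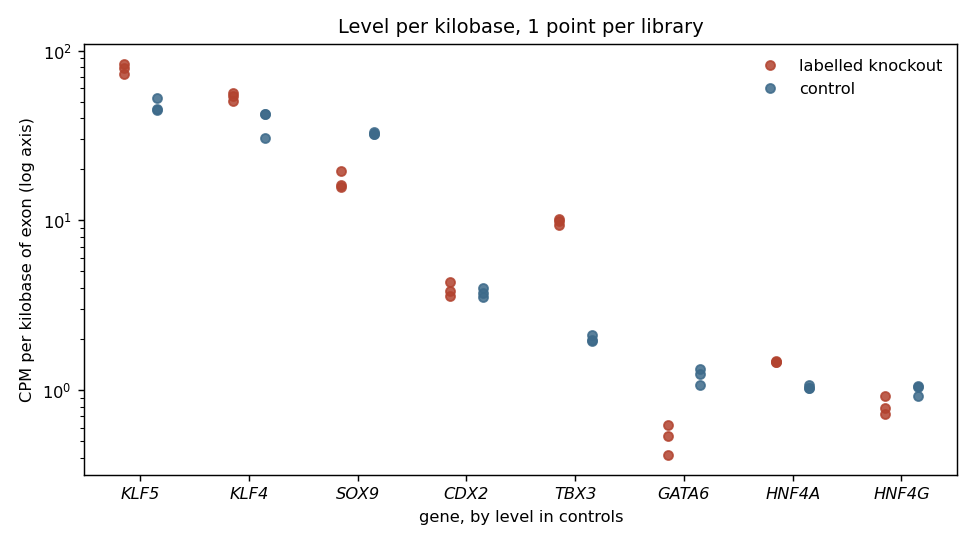
Level per kilobase of exon (CPM per kilobase, log axis) of the 8 genes with reads, with points for single libraries, libraries labelled knockout beside controls. KLF5, KLF4 and SOX9 are the highest in both groups, and TBX3 stands at 9.85 in the libraries labelled knockout and 2.01 in the controls.

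Relatives of the 9 genes were then read from lists of each family, leaving out the 9 themselves. Of 16 other T-box genes, 7 were tested, 2 rose and 1 fell, with a median log2 fold change of −0.02 against 0.01 over all genes tested. TBX4, a limb and lung factor, rose by 1.80 on the log2 scale (SE 0.31; edgeR adjusted p = 0.00437), to 2.05 CPM in the libraries labelled knockout against 0.592 CPM in the controls. TBX19, a pituitary factor, rose by 0.57 and TBX18, a factor of heart and ureter, fell by 0.45. Both lost their call without replicate 1 or 3 labelled knockout or without control replicate 1, with edgeR adjusted p up to 0.0837 and 0.0667. TBX2, the closest relative of TBX3, averaged 1.06 CPM in the libraries labelled knockout and 0.971 CPM in the controls (edgeR adjusted p = 0.749).

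Of 15 other Krüppel-like factors, 13 were tested, 3 rose and 4 fell, with a median log2 fold change of −0.08. KLF12, a repressor, rose by 0.74 (SE 0.080) to 28.9 ± 2.14 CPM in the libraries labelled knockout, against 17.3 ± 0.331 CPM in the controls (SD, n = 3 each; edgeR adjusted p = 0.000428). KLF15, a regulator of metabolism, fell by 1.25, to 2.65 CPM in the libraries labelled knockout, against 6.38 CPM in the controls. KLF7 fell by 0.83, to 29.3 CPM in the libraries labelled knockout, against 52.3 CPM in the controls. KLF9 fell by 0.72. Its call was lost with the replicate block and without replicate 1 or 3 of either group (edgeR adjusted p up to 0.113). KLF9 lies on chromosome 9, among those on which control replicate 2 was low. Without that library the log2 fold change of KLF9 was −0.89 (edgeR adjusted p = 2.04e-05).

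Of 19 other SOX genes, 9 were tested, 2 rose and 1 fell, with a median of 0.10. SOX4, a progenitor factor also found in crypts, went the other way from SOX9: it had 204, 168 and 247 CPM in the libraries labelled knockout, against 65.8, 56.2 and 65.2 CPM in the controls. These groups were far apart, with a log2 fold change of 1.73 (SE 0.13, edgeR adjusted p = 6.31e-05) and 1.66 without control replicate 2. SOX4 lies on chromosome 6, among those on which that library was low. SOX8, which is in the same subgroup as SOX9, rose by 0.77 (SE 0.099), and SOX13 fell by 0.44 (SE 0.075).

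Of 6 other GATA genes, 2 were tested. GATA2, best known from blood stem cells, rose by 1.33 (SE 0.13; edgeR adjusted p = 0.000293) to 36.1, 26.6 and 34.2 CPM in the libraries labelled knockout, against 12.2, 11.8 and 14.7 CPM in the controls, while GATA4 and GATA5, the other gut members, had at most single reads. No GATA gene in the list fell by edgeR, DESeq2 or limma-voom, and 0 were lower at an unadjusted p under 0.05. Of 4 other caudal and ParaHox genes only PDX1, the pancreas and duodenum factor, was tested. It averaged 0.715 CPM in the libraries labelled knockout and 0.879 CPM in the controls (edgeR adjusted p = 0.525), and 0 genes of that list were called by any of the 3 tools or at an unadjusted p under 0.05.

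Among 20 relatives and partners of the HNF4 receptors, 16 were tested, 6 fell and 0 rose by edgeR, with a median of −0.13. At an unadjusted p under 0.05, 2 were higher, and DESeq2 and limma-voom called 0 higher. NR2F1 and NR2F2, the COUP factors that share sites with HNF4A, fell by 0.92 (SE 0.13) and 0.69 (SE 0.071). NR2F1 had 32.4, 30.6 and 35.5 CPM in the libraries labelled knockout, against 62.1, 50.8 and 73.5 CPM in the controls. RXRB, a retinoid receptor, fell by 0.33, a call lost without replicate 1 or 3 labelled knockout (edgeR adjusted p up to 0.0717). Without replicate 1 labelled knockout 3 of the 16 were called lower, without its replicate 3 the count was 2, and without control replicate 1 it was 3. Without control replicate 2, 2 of the 16 were called higher.

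Among 28 other gut epithelial transcription factors 11 were tested, 2 rose and 4 fell, with a median of −0.25. EHF, an epithelial ETS factor, fell by 0.73 (SE 0.086) to 34.0 ± 4.02 CPM in the libraries labelled knockout, against 56.5 ± 1.76 CPM in the controls (SD, n = 3 each; edgeR adjusted p = 0.000681). VDR, the vitamin D receptor, fell by 0.47, and PITX1, a hindlimb homeobox factor, rose by 0.55. PRDM1, a repressor of the suckling gut, rose by 0.72, with a call lost without any 1 library labelled knockout or without control replicate 1 (edgeR adjusted p up to 0.174). The secretory factor ATOH1 and the stem cell factor ASCL2 had at most single reads.

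**Figure D4:**
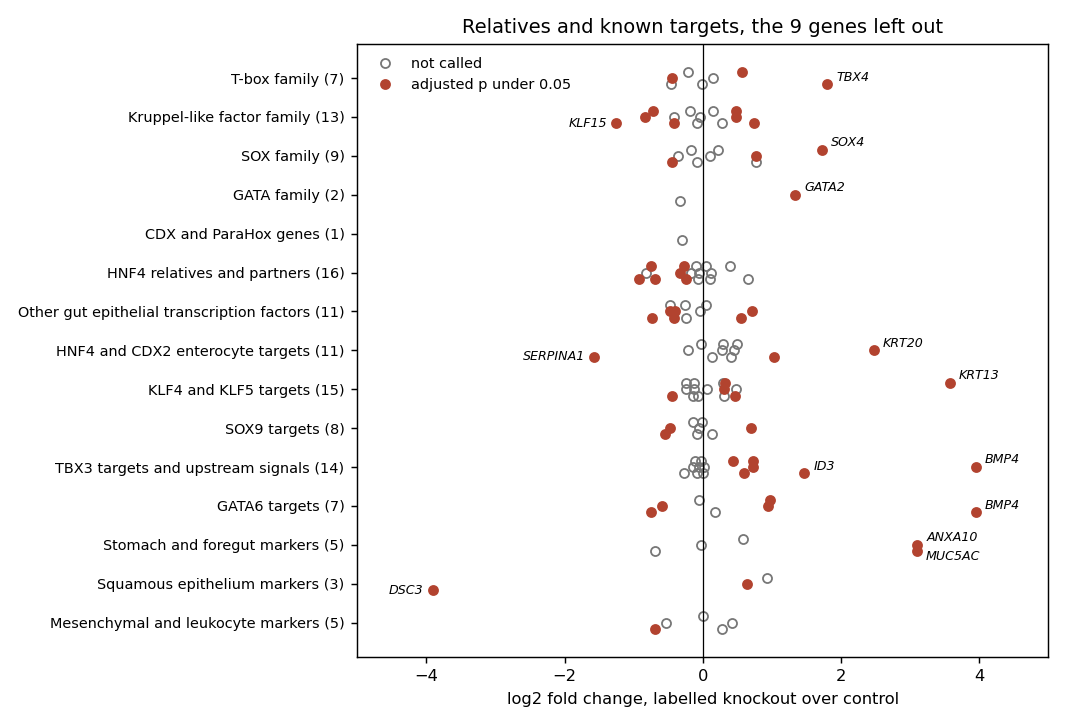
Log2 fold changes, libraries labelled knockout over controls, of the tested genes in each list of relatives, known targets and markers, the 9 genes left out. Filled points passed an edgeR adjusted p of 0.05 and open points did not; BMP4 at 3.95 and DSC3 at −3.91 are the farthest from 0.

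Known targets of the 9 factors were read in the same way. Of 35 enterocyte genes that HNF4 or CDX2 are known to drive, 9 had no read in any library and 11 were tested. Of these, 2 rose and 1 fell, with a median log2 fold change of 0.30. KRT20, a keratin of the surface epithelium, had 7.54, 5.45 and 9.01 CPM in the libraries labelled knockout, against 1.29, 1.05 and 1.64 CPM in the controls. It rose by 2.47 on the log2 scale (SE 0.25; edgeR adjusted p = 0.000303), with every library labelled knockout above every control. SERPINA1, the antitrypsin gene, fell by 1.58 (SE 0.14) to 2.28 CPM in the libraries labelled knockout, against 6.82 CPM in the controls. HEPH, an iron oxidase on chromosome X, rose by 1.02, a call lost with DESeq2 and without any 1 library other than control replicate 3 (edgeR adjusted p = 0.0936 without control replicate 2). Its counts were low, with 22, 15 and 22 reads in the libraries labelled knockout and 9, 7 and 12 reads in the controls. The absorptive genes APOB, FABP1, FABP2, SI and GUCY2C had no reads.

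Of 17 genes tied to KLF4 or KLF5, 15 were tested, 4 rose and 1 fell, with a median of 0.06. KRT13, a keratin of stratified epithelium, had 14.1, 11.5 and 16.98 CPM in the libraries labelled knockout, against 1.17, 0.788 and 1.64 CPM in the controls (log2 fold change 3.58, SE 0.24; edgeR adjusted p = 3.34e-05). CCND1, which encodes cyclin D1, fell by 0.44 (SE 0.069). The mitotic cyclin CCNB1 rose by 0.46 and the growth factor PDGFA by 0.32. CCNB1 and PDGFA lost their calls without replicate 1 or 2 labelled knockout or without control replicate 1, with edgeR adjusted p up to 0.0652 and 0.0955, and PDGFA also with library size alone or the replicate block. CDKN1A, the cell cycle inhibitor that KLF4 is known to raise, averaged 235 CPM in the libraries labelled knockout and 258 CPM in the controls (edgeR adjusted p = 0.317). With control replicate 2 left out, 6 of the 15 were called higher and 4 lower. Whether CDKN1A is among those 4 is not given here, so its lack of a call holds for the fit with all 6 libraries. Without replicate 2 labelled knockout 2 were called lower. Without replicate 1 or 2 labelled knockout, or without control replicate 1, 2 were called higher.

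Of 17 genes tied to SOX9, 8 were tested, 1 rose and 2 fell, with a median of −0.06. The cartilage collagen gene COL9A3 rose by 0.69 (SE 0.097), whereas EZR, which links actin to the membrane, fell by 0.55 (SE 0.087). COL11A2 fell by 0.47, a call lost without replicate 1 or 3 labelled knockout (edgeR adjusted p up to 0.0751). LGR5, the crypt stem cell receptor, was too low to test, at 0.173 CPM in the libraries labelled knockout and 0.227 CPM in the controls.

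Of 19 targets of TBX3 and signals upstream of it, 14 were tested and 6 rose, with a median of 0.01; 0 fell by edgeR, DESeq2 or limma-voom, and 0 were lower at an unadjusted p under 0.05. The 6 were BMP4, ID1, ID2, ID3, SMAD7 and AXIN2, while the BMP receptors BMPR1A and BMPR2 were not called (edgeR adjusted p = 0.861 and 0.674). The ligand BMP4 had 400, 302 and 433 CPM in the libraries labelled knockout, against 25.0, 21.0 and 27.8 CPM in the controls (log2 fold change 3.95, SE 0.15; edgeR adjusted p = 3.18e-06). Of the BMP-induced inhibitors of differentiation, ID3 rose by 1.47 (SE 0.081) and ID2 by 0.73 (SE 0.077). AXIN2, the feedback inhibitor of Wnt signalling, rose by 0.72, a call lost without replicate 1 or 3 labelled knockout (edgeR adjusted p up to 0.0621). With all 6 libraries in the fit, the genes that TBX3 is known to repress gave no call: CDKN2A averaged 26.3 CPM in the libraries labelled knockout and 28.4 CPM in the controls, and CDH1, which encodes E-cadherin, 279 CPM in the libraries labelled knockout and 274 CPM in the controls (edgeR adjusted p = 0.674 and 0.755). Without replicate 1 or 3 labelled knockout 4 genes of the list were called higher, and without control replicate 2, 2 were called lower. Whether those 2 are genes that TBX3 represses is not given here.

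Of 14 genes tied to GATA6, 7 were tested, 3 rose and 2 fell, with a median of 0.18. BMP4, given above, is in this list too. ACSL5, a fatty acid ligase, rose by 0.97 (SE 0.050) to 594 ± 26.5 CPM in the libraries labelled knockout, against 302 ± 2.18 CPM in the controls (SD, n = 3 each; edgeR adjusted p = 8.54e-06). DKK1, a secreted Wnt inhibitor, rose by 0.94 (SE 0.14). Without any 1 of the libraries labelled knockout 1 gene of the list was called lower, and without control replicate 1 the edgeR count was 0.

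Markers of other epithelia moved in part. Of 20 stomach and foregut markers 5 were tested and 2 rose, ANXA10 and the mucin MUC5AC; 0 fell by edgeR, DESeq2 or limma-voom, and 1 was lower at an unadjusted p under 0.05, and also by edgeR without control replicate 2. The summed level of the list was between 129 and 140 CPM in the libraries labelled knockout and between 17.4 and 23.8 CPM in the controls. Nearly all of it was ANXA10, at 127, 125 and 134 CPM in the libraries labelled knockout, against 14.7, 12.8 and 17.4 CPM in the controls, while the defining markers TFF1, GKN1 and GKN2 had no reads. MUC5AC rose by 3.10 at very low counts, to 0.822 CPM in the libraries labelled knockout, against 0.0921 CPM in the controls. Of 14 squamous markers 3 were tested: KRT10 rose by 0.63 (SE 0.069), (2 squamous genes were higher without control replicate 1), and DSC3, a desmosomal cadherin, fell by 3.91 (SE 0.12) to 1.82 CPM in the libraries labelled knockout, against 27.5 CPM in the controls. The summed squamous level was between 48.4 and 56.9 CPM in the libraries labelled knockout and between 58.2 and 60.9 CPM in the controls, and KRT1 and LOR had no reads. Of 15 mesenchymal and leukocyte markers 5 were tested, and 1, ACTA2, fell by 0.69, a call that was lost with DESeq2, limma-voom, no count filter or the replicate block and without any 1 library. None of these 15 rose by edgeR, DESeq2 or limma-voom or at an unadjusted p under 0.05. Their summed level was between 76.7 and 98.2 CPM in the libraries labelled knockout and between 77.3 and 98.5 CPM in the controls, most of it COL1A1, and the defining markers PECAM1 and CD3E had no reads.

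The nearest tested genes on the chromosome were examined on both sides of each of the 9 genes. For SOX9 and for GATA6 the tested neighbours on both sides passed the threshold. SOX9-AS1, which spans SOX9 on the opposite strand from 72034107 to 72237203, had 2.23, 1.27 and 1.44 CPM in the libraries labelled knockout, against 4.25, 3.88 and 4.32 CPM in the controls. Its groups did not overlap, and it fell by 1.31 (SE 0.22; edgeR adjusted p = 0.00386). LINC00511, a long noncoding RNA gene 163671 bases from SOX9, had 12.9, 12.7 and 14.2 CPM in the libraries labelled knockout, against 18.9, 18.2 and 19.8 CPM in the controls. It fell by 0.51 (SE 0.086; edgeR adjusted p = 0.00398), so SOX9 and both of these genes were lower in the libraries labelled knockout.

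**Figure D5:**
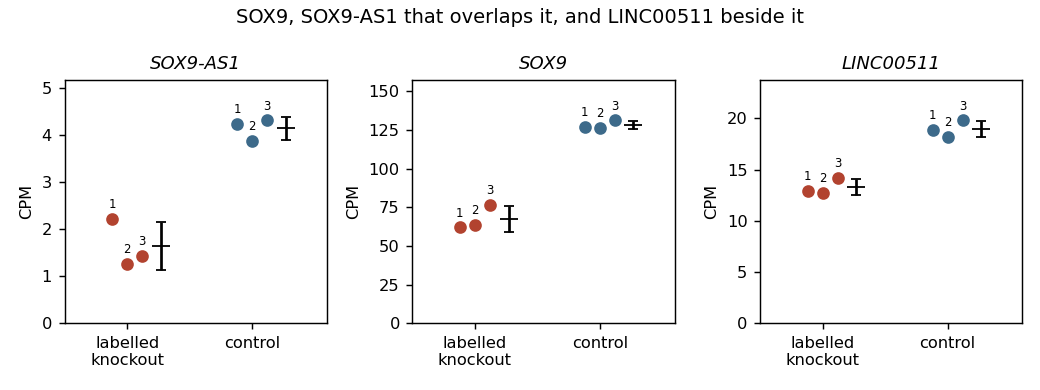
Scaled read counts (CPM) of SOX9-AS1, SOX9 and LINC00511 in the 3 libraries labelled knockout (left) and the 3 controls (right), with points numbered by replicate and a bar for mean and SD. In all 3 panels every library labelled knockout lies below every control, at 62.0 to 76.8 CPM against 126 to 131 CPM for SOX9.

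The neighbours of TBX3 did not move with it. RBM19, 703883 bases to one side, had a log2 fold change of −0.10 (SE 0.076; edgeR adjusted p = 0.392), and MED13L, 1269708 bases to the other, −0.09 (SE 0.053; edgeR adjusted p = 0.251). Beside GATA6, RBBP8 rose by 0.57 (SE 0.054; edgeR adjusted p = 0.000196), opposite to GATA6, while MIB1 fell by 0.17 with a call lost with DESeq2, with no count filter and without replicate 1 or 3 of either group. The antisense gene GATA6-AS1 was too low to test. Beside HNF4A, TTPAL rose by 0.27, a call lost with library size alone and without replicate 1 or 3 labelled knockout or control replicate 1, and FITM2 had −0.13 (edgeR adjusted p = 0.383). Beside CDX1, TCOF1 rose by 0.31 (SE 0.058; edgeR adjusted p = 0.00727), although CDX1 itself had no reads. Beside HNF4G, CASC9 fell by 0.66, a call lost with DESeq2, limma-voom, no count filter or the replicate block and without any 1 library. PDX1 and FLT3 beside CDX2, PIBF1 and FABP5P1 beside KLF5, and RAD23B and FAM206A beside KLF4 were not called.

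The genes most like each of the 8 across the 6 libraries were read by Pearson's r of log2 CPM, among about 11676 tested genes with a mean of at least 5 CPM. The 6 libraries share their depth with every gene and fall into the 2 groups, so these values mostly order genes by how they separate the groups and are a description only. TBX3 was most like LRPPRC (r = 0.999), ACSL5 and TPPP, and HNF4A was also most like LRPPRC (r = 0.999), then SLC38A10 and EIF1. SOX9 was most like PLOD2 (r = 0.998), HOXB3 and CGN, GATA6 most like S100PBP (r = 0.999), MYO5A and COQ10B, and KLF5 most like PRDX2 (r = 0.999), PCDH7 and RP11-114H23.2. For HNF4G the likest genes were PPP1R11 (r = 0.991), PPP2R2D and C17orf59, and for CDX2, which did not separate the groups, ECE2 (r = 0.962), MTX1 and EMC10.

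KLF4 was most like GRINA (r = 0.999), HECW1 and BRPF3. These lie on chromosomes 8, 7 and 6, 3 of those on which control replicate 2 was low. Without that library GRINA had a log2 fold change of 0.23, against 0.33 with it, HECW1 0.33 against 0.47, and BRPF3 0.22 against 0.31. The part of that library in the likeness was not tested.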

How the data were processed

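RNA sequencing measured 3 HCT116 libraries labelled ZFP90 knockout and 3 controls, made with an Illumina TruSeq kit from 1 µg of total RNA, per the labels' protocols. The authors deposited unnormalized counts of reads for each gene symbol, with 1 table for every library. TopHat2 2.0.11 and HTSeq, on hg19 and GRCh37, are named in the submitters' processing notes; which HTSeq version and strand option were used is not given in the sources used here. The 5 summary lines, 31.7% to 32.4% of listed reads, stayed out of library sizes and tests. Counts were tested with edgeR 4.0.16 (R 4.3.3; quasi-likelihood, TMM, filterByExpr with minimum count 10 and total 15), with Benjamini-Hochberg adjustment over all 16369 genes tested. A call is an adjusted p under 0.05, two-sided. CPM used TMM-scaled library sizes, and the SE of a log2 fold change was derived from the F statistic. Intervals and floors (3 reads) cover counting error only.

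The 9 genes and the 15 gene lists were chosen with earlier results of these data known, so no list supports a direction. The genes named were the 9, up to 4 called genes a list with the largest change, the 3 genes most like each, and the nearest tested gene on each side; a gene that this rule takes is not reported here. List genes named without a call (such as TBX2, CDKN1A, CDKN2A, CDH1 and LGR5), those at or near 0 reads, and the cell markers were added after their values were seen. GENCODE release 29 (GRCh38) placed 83.8% of tested genes by symbol; no position was converted between builds. Promoters came from RefSeq (GRCh38.p14). No replicate pair agreed within sampling noise. The alternatives tried were limma-voom (limma 3.58.1), DESeq2 1.42.0, other scalings and filters, a stricter threshold, the replicate number as a block, and leaving out each library.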

Additional observations from a re-analysis of the deposited data

How the results depend on the processing

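Over the 13 alternatives, the log2 fold changes of the 8 genes gave 104 values, of which 102 kept their sign, the other 2 being of CDX2. Of these values, 103 moved by less than the replicate SD; HNF4A with library size alone as the scaling moved to 0.43. That scaling shifted the median log2 fold change of all genes to −0.06, called 986 genes higher, and made 29.6% of calls higher, against 46.1% in the main analysis. An adjusted p under 0.01 left 618 genes higher and 869 lower. It also left 0 GATA6 targets lower, 1 enterocyte target higher, 2 HNF4 relatives lower, 2 KLF targets higher, 1 other gut factor higher, 1 SOX9 target lower, and 1 T-box gene higher and 0 lower. With no count filter 1 HNF4 relative was higher, 7 KLF targets were higher and 3 lower, 2 squamous markers were higher and 1 stomach marker was lower; with at least 1 CPM in 3 libraries 1 stomach marker was higher. DESeq2 called 1 enterocyte target higher. Library size alone gave 2 KLF targets and 2 SOX genes lower. ACTA2, the mesenchymal call, was at 0 under DESeq2, limma-voom, no filter, the replicate block and the stricter threshold.

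The replicate numbers do not pair the libraries by the rule used: same-numbered libraries had deviations correlated at 0.043, 0.14 and 0.083, although each of the 6 correlated best with its own number, a hint from the data only. With the replicate block, 1623 genes were higher and 1840 lower, the 9 genes again gave 4 and 2, 2 KLF targets were lower and 2 squamous markers higher. KLF9, PDGFA, KRT18, COQ10B, HECW1, ACTA2 and CASC9 lost their calls.

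With each library left out, counts ran between 752 and 2248 higher and 998 and 2340 lower over all genes. The lowest came without replicate 1 labelled knockout and the highest without control replicate 2. Lowest and highest were 0 and 2 for GATA6 targets lower, 1 and 2 for enterocyte targets higher, 0 and 2 for HNF4 relatives higher, 2 and 6 for HNF4 relatives lower, 2 and 6 for KLF targets higher, 1 and 4 for KLF targets lower, 0 and 0 for mesenchymal markers lower, 1 and 2 for other gut factors higher, 1 and 2 for SOX9 targets lower, 1 and 2 for squamous markers higher, 0 and 1 for stomach markers lower, 1 and 2 for T-box genes higher, 0 and 1 for T-box genes lower, and 0 and 2 for TBX3 targets lower. Of 65 named genes called, 44 kept the call under all alternatives. No named gene with a call changed sign. Signs turned for ECE2 (−0.000824 with library size alone, −0.0042 without replicate 1 labelled knockout), MTX1 (−0.22 without that library, −0.037 without control replicate 2, up to 0.41), EMC10 (−0.0147), RPL7P1 (−0.0205) and CDH1 (−0.0426) with library size alone, FLT3 (−0.0245 without replicate 1 labelled knockout, up to 0.79), ZFHX4 (−0.11, up to 0.30) and EPCAM (0.0156, down to −0.0376) without control replicate 2, and RAD23B (−0.0446 with library size alone, −0.0143 without replicate 2 labelled knockout, −0.13 without control replicate 2, up to 0.11); the cause was not tested. Low counts limit GATA6, HNF4G and CDX1.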

Other observations

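The gene lists held further calls that the naming rule left out, and 10 of them are listed here after their values were seen. TCF7L2, the main Wnt effector of the crypt, fell by 0.40 on the log2 scale, to a mean of 97.7 CPM in the libraries labelled knockout, against 129 CPM in the controls (edgeR adjusted p = 0.00267). HES1, the Notch target that keeps crypt cells from the secretory fate, fell by 0.42 with a call lost without replicate 3 labelled knockout, and KLF2, best known from blood vessels, fell by 0.42. KLF13 and KLF10, both repressors, rose by 0.48 each, KLF10 to 252 CPM in the libraries labelled knockout, against 181 CPM in the controls. ID1, a target of BMP signals like ID2 and ID3, rose by 0.44 to 509 CPM in the libraries labelled knockout, against 375 CPM in the controls (edgeR adjusted p = 0.0019). The calls of SMAD7, a SMAD inhibitor that rose by 0.59, and of DAB2, an endocytic adaptor that fell by 0.58, were lost without replicate 1 labelled knockout or without control replicate 1, that of SMAD7 also without replicate 3 labelled knockout. The nuclear receptors NR2C1 and PPARA fell by 0.25 and 0.28, and both calls were lost without replicate 1 or 3 of either group, that of PPARA also without replicate 2 labelled knockout.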
